A study of Mus musculus with 126 samples.

Results

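Genes of the two-cell-like state of mouse embryonic stem (ES) cells were followed across 4 combinations of genotype and drug. The genes were taken by name from the deposited RNA-seq count table: the 6 Zscan4 copies Zscan4a to Zscan4f, Zfp352, Tcstv1 and Tcstv3. All 9 were listed in the table, among 23420 genes. Of the series' 126 samples, the 8 RNA-seq libraries were used, 2 for each group, and the design text calls the replicates biological. The groups were wild type (WT) J1 cells and triple knockout (TKO) cells of strain J1, Dnmt1-/-, Dnmt3a-/-, Dnmt3b-/-, that is without these DNA methyltransferases. Each genotype was kept for 36 h with Trichostatin A (TSA), an inhibitor of histone deacetylases, at a labelled 5 ng/µl, or with 0.0033% DMSO, its solvent. All groups grew on gelatin in medium with serum and leukaemia inhibitory factor. Whether the TKO cells are a single clone is not stated in the labels.

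In ES cell cultures, a small and changing fraction of cells passes through a state in which transcripts of the two-cell embryo are made. Zscan4 proteins, with a SCAN domain and zinc fingers, are the usual markers of that state and of zygotic genome activation, and are linked to telomere maintenance. The transcription factor Dux binds and activates many of these genes, while chromatin repressors keep them off in most cells of the culture. In bulk RNA, more cells in the state and more RNA per such cell cannot be told apart.

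The Zscan4 copies lie as a cluster within 608078 bases of chromosome 7 (mm10). Zscan4a spans 10794241 to 10799065 on the minus strand, Zscan4b 10900740 to 10905050 on the minus strand, and Zscan4c 11005745 to 11010547 on the plus strand. Zscan4d spans 11161643 to 11166148 on the minus strand, Zscan4e 11306378 to 11310682 on the minus strand, and Zscan4f 11397915 to 11402318 on the plus strand. RefSeq annotates Zscan4a as a transcribed pseudogene, Zscan4e as a pseudogene and the other members as protein coding. Each Zscan4 copy has 4 exons in the table, with a summed length of 1745 to 2276 bases. Zfp352 lies on chromosome 4 from 90218820 to 90225687 on the plus strand, with 2 exons. Tcstv1 lies on chromosome 13 from 119893388 to 119894767 on the minus strand, and Tcstv3 at 120316862 to 120318261 on the plus strand of that chromosome. The exons of the 9 genes overlapped no exon of another gene in the table.

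The promoter sequences of the copies are shown because they show how alike the copies are and hold a stretch that matches the Dux motif. RefSeq windows (GRCm38.p6) were found for 5 members: Zscan4b, Zscan4c, Zscan4d, Zscan4f and Zfp352. The Zscan4 sequences below run 5′ to 3′ in the direction of the gene, over 146 bases that end with a TATAAA shared by the 4 copies. Capitals mark that TATAAA and the stretch that matches, on the opposite strand, the core of the Dux binding motif (11 letters, of which the 2 in the middle were left free, searched on both strands).
Zscan4b, chr7:10905076-10905221, minus strand: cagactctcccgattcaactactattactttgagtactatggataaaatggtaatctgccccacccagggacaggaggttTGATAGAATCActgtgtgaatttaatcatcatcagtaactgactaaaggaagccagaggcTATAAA
Zscan4c, chr7:11005551-11005696, plus strand: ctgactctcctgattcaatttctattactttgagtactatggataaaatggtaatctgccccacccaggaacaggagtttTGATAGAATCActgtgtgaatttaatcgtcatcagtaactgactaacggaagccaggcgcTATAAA
Zscan4d, chr7:11166208-11166353, minus strand: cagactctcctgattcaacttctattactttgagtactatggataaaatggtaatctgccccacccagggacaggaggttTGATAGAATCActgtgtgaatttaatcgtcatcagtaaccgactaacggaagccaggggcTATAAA
Zscan4f, chr7:11397744-11397889, plus strand: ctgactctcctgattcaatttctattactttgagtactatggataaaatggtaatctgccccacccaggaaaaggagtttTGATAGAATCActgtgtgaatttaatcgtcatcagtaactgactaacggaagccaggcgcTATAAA

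Zscan4c and Zscan4f differed at 1 of these 146 bases, an identity of 99.3%. The pair Zscan4b and Zscan4f was the least alike, with 11 differences and 92.5% identity, and the other 4 pairs lay between 93.2% and 95.9%. The Dux core occurred in all 4 Zscan4 windows and in 58 of 32851 windows of 250 bases in the RefSeq table (0.177%). Of the other two-cell genes listed further on, 27 had a window, and 0 of these held the match. TATAAA occurred in 12.4% of windows. A match of letters is a description of the sequence, not a binding site, and a missing match says only that the letters are not in that window. The Zscan4 windows held 1 to 3 CpG dinucleotides in 250 bases, against a median of 6 over all windows, CpG being the dinucleotide that DNA methyltransferases modify. Such counts were not rare. As few CpG or fewer were held by 18.8% of all windows for Zscan4b, and by 37.8% for Zscan4c, Zscan4d and Zscan4f.

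Zfp352 encodes a zinc finger protein made in the early embryo, and its window shows a different sequence, a short repeat. Capitals mark TAATCC, a motif chosen after the window was read, which occurs 9 times.
Zfp352, chr4:90218570-90218819, plus strand: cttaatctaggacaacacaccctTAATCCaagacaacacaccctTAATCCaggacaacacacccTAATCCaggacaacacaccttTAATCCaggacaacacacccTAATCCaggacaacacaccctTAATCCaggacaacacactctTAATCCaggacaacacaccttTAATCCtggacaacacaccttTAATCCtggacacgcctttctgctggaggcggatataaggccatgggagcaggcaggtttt

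TAATCC was found on either strand in 6.25% of windows, and 1 window in the table, that of Zfp352, held 9 or more copies. The Zfp352 window held 2 CpG dinucleotides and no match to the Dux core or TATAAA.

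The libraries held 13280631 to 15542527 counts, and no pair of replicates agreed within sampling noise. The targeted genes were lower in the TKO libraries: Dnmt1 had a mean of 446 normalised CPM, counts as a share of each library after TMM scaling, in WT DMSO and 130 in TKO DMSO, Dnmt3a 211 and 26.4, and Dnmt3b 592 and 44.9. H1f0, a linker histone gene known to respond to deacetylase inhibitors, had a mean of 45.2 CPM with DMSO and 109 with TSA in WT, and of 76.8 and 167 in TKO. All 10 ES cell markers looked for passed the filter on low counts. Their summed level was 3658 to 4008 CPM in WT DMSO and 4485 to 4832 in TKO DMSO, against 2137 to 2326 in WT TSA and 2139 to 2413 in TKO TSA.

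TSA raised the Zscan4 genes in both genotypes. The 6 copies together stood at 13.4 and 13.9 normalised CPM in the 2 WT DMSO libraries and at 127 and 224 CPM in the 2 WT TSA libraries. In TKO cells the sum stood at 6.63 and 8.87 CPM with DMSO and at 248 and 308 CPM with TSA. Every TSA library was above every DMSO library, TKO DMSO was the lowest group and TKO TSA the highest. The group means were 13.7 ± 0.370 CPM in WT DMSO, 175 ± 68.3 in WT TSA, and 7.75 ± 1.58 in TKO DMSO, while TKO TSA had 278 ± 42.4 (SD, n = 2 each). These levels rest on 360 Zscan4 counts in WT DMSO, 5377 in WT TSA, 219 in TKO DMSO and, with TSA, 8580 in TKO.

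In edgeR's quasi-likelihood test the sum rose with TSA by 3.68 ± 0.25 on the log2 scale (SE) in WT, 12.8-fold, with an adjusted p of 5.58e-06. In TKO it rose by 5.17 ± 0.27 (SE), 35.9-fold, with an edgeR adjusted p of 8.14e-07. With 2 libraries against 2, an exact permutation test of 1 gene cannot go below a two-sided p of 0.333, so these p-values rest on the spread that the model shares across genes.

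The copies differed in level and in the size of the change. Zscan4d, the most counted copy, had 5.85 and 4.62 CPM in WT DMSO, 65.5 and 109 in WT TSA, and 3.08 and 3.85 in TKO DMSO, while TKO TSA had 137 and 166. Zscan4c had 2.64 and 3.65 CPM in WT DMSO, 29.1 and 54.3 in WT TSA, and 1.57 and 1.60 in TKO DMSO, while TKO TSA had 58.1 and 73.6. In both copies the DMSO and TSA libraries were far apart, and the TKO TSA libraries lay above the WT TSA libraries. Zscan4d rose by 4.05 ± 0.25 (log2, SE) with TSA in WT and by 5.45 ± 0.27 in TKO, with edgeR adjusted p of 3.83e-06 and 5.00e-07. For Zscan4c the rises were 3.73 ± 0.31 and 5.37 ± 0.34 (log2, SE), with edgeR adjusted p of 1.42e-05 and 1.59e-06.

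Zscan4a, the transcribed pseudogene copy, had the smallest response of the 6. It stood at 3.42 and 4.29 CPM in WT DMSO and at 1.64 and 2.25 in TKO DMSO. With TSA it stood at 15.4 and 30.2 CPM in WT and at 24.1 and 32.5 in TKO, so that the TSA libraries of the genotypes overlapped. Its log2 rise was 2.56 ± 0.32 (SE) in WT and 3.86 ± 0.35 in TKO, with edgeR adjusted p of 1.09e-04 and 9.41e-06.

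Zscan4f, Zscan4e and Zscan4b were near the limit of counting without TSA. Zscan4f had 7 and 9 counts in the WT DMSO libraries and 3 and 10 in the TKO DMSO libraries, against 176 and 234 in WT TSA and 250 and 345 in TKO TSA. Its log2 rise in edgeR was 4.43 ± 0.39 (SE) in WT (adjusted p 1.74e-05) and 5.37 ± 0.39 in TKO (adjusted p 2.97e-06). Zscan4e had 10 and 6 counts in WT DMSO and 2 and 2 in TKO DMSO, against 72 and 146 in WT TSA and 115 and 174 in TKO TSA. Zscan4b had 4 and 2 counts in WT DMSO, 0 and 4 in TKO DMSO, 33 and 63 in WT TSA and 63 and 53 in TKO TSA. In all 3 copies every TSA library lay above every DMSO library of its genotype. These copies passed the filter on low counts only through their TSA libraries. The 0 counts of Zscan4b in TKO DMSO replicate 1 allow a level of up to 0.205 normalised CPM, the worth of 3 counts there. Because so few counts stand under some of these folds, the ratio of the pooled counts, scaled by library size, was also taken with its counting interval, which covers counting error only. With TSA in TKO it was 74.0 for Zscan4e (95% interval 28.6 to 273) and 29.7 for Zscan4b (11.3 to 111). With TSA in WT Zscan4e had a fitted log2 rise of 3.54 ± 0.48 (SE), with an edgeR adjusted p of 1.61e-04. Zscan4b rose there by 3.73 ± 0.67 (log2, SE), with an edgeR adjusted p of 9.07e-04. Without replicate 2 of WT TSA these rises were 2.84 (adjusted p 5.92e-04) and 3.10 (adjusted p 0.00629). In TKO, Zscan4f rose by 4.71 without replicate 1 of TKO DMSO and by 6.50 without replicate 2, and Zscan4b by 3.66 without replicate 1. Without replicate 2 the control of Zscan4b was the library with 0 counts, and its fitted value is then no measure of the fold.

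**Figure D1:**
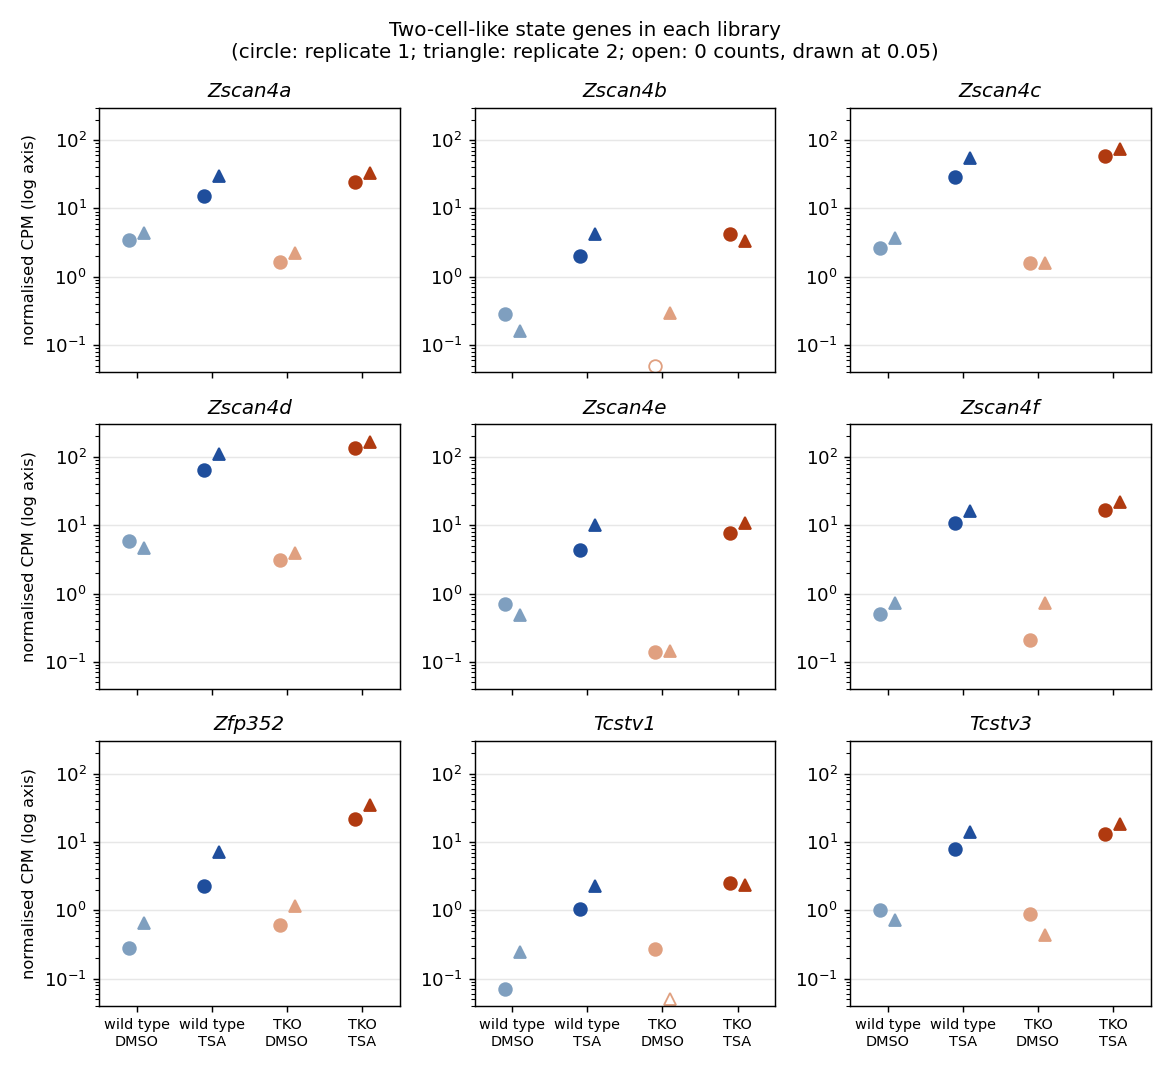
Normalised CPM (log axis) of the 9 genes in each of the 8 libraries, by genotype and treatment, with circles for replicate 1, triangles for replicate 2 and open symbols for 0 counts. In every panel both TSA libraries of a genotype lie above both of its DMSO libraries, and Zfp352 shows the widest gap between the TSA groups, 2.26 and 7.13 CPM in WT against 22.0 and 34.9 in TKO. Of the 9 genes, 5 passed the filter on low counts only through their TSA libraries. The share of all genes separated by TSA in this way was not counted.

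The make-up of the Zscan4 counts shifted with TSA, as far as the authors' counting separates such similar copies. Zscan4a made up 25.5% and 30.8% of the Zscan4 counts in the WT DMSO libraries (95% Wilson intervals 19.8 to 32.2 and 24.4 to 38.1) and 24.7% and 25.4% in TKO DMSO. With TSA its share was 12.1% and 13.5% in WT and 9.70% and 10.5% in TKO. The 4 TSA libraries were all below the 4 DMSO libraries. Zscan4d made up 38.4 ± 7.41% in WT DMSO and 44.9 ± 2.09% in TKO DMSO, against 50.1 ± 1.93% and 54.6 ± 0.934% with TSA (SD, n = 2 each). Its shares again did not overlap between treatments, but for some libraries their 95% Wilson intervals did. In WT this held for replicate 1 with DMSO (36.7 to 50.8) against both TSA libraries (49.4 to 53.7 and 47.1 to 50.5). In TKO it held for replicate 1 with DMSO (36.8 to 56.3) against both TSA libraries (53.6 to 56.8 and 52.5 to 55.3). Zscan4c held 18.0% to 26.2% of the counts in the DMSO libraries and 22.9% to 24.3% in the TSA libraries, and these ranges overlapped. Zscan4b, Zscan4e and Zscan4f each held between 0% and 8.45% in every library. The shares were compared as values, with no test beyond their intervals.

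**Figure D2:**
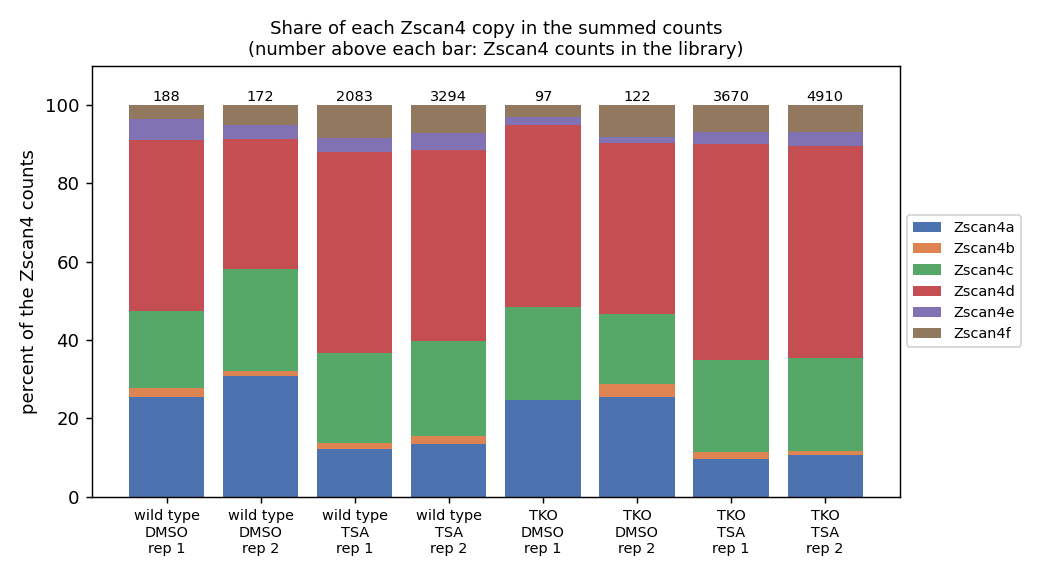
Percent of the Zscan4 counts assigned to each of the 6 copies in each library, with the number of Zscan4 counts above each bar. The Zscan4a segment is 24.7% to 30.8% of the bar in the DMSO libraries and 9.70% to 13.5% in the TSA libraries, and the DMSO bars rest on 97 to 188 counts.

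Zfp352 was the member with the largest difference between genotypes under TSA. It had 0.285 and 0.648 CPM in WT DMSO and 0.615 and 1.16 in TKO DMSO, from 4 to 16 counts a library. With TSA it had 2.26 and 7.13 CPM in WT and 22.0 and 34.9 in TKO. The DMSO libraries of the genotypes overlapped and the TSA libraries did not. The rise with TSA was 3.32 ± 0.67 (log2, SE) in WT and 5.00 ± 0.52 in TKO, 10.0-fold and 32.0-fold, with edgeR adjusted p of 0.00196 and 1.94e-05. The 2 WT TSA libraries differed 3.16-fold from each other for this gene, the largest such gap among the 9. The rise in WT was 2.29 (log2) without replicate 2 of WT TSA, with an edgeR adjusted p of 0.0101, and 3.94 without replicate 1, with an adjusted p of 1.33e-04. It was 2.83 without replicate 1 of WT DMSO (adjusted p 0.0240) and 3.98 without replicate 2 (adjusted p 0.00901).

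Tcstv1 and Tcstv3, short genes of a family named for its expression at the two-cell stage, rose together. Tcstv3 had 0.999 and 0.729 CPM in WT DMSO, 7.87 and 13.9 in WT TSA, and 0.889 and 0.436 in TKO DMSO, while TKO TSA had 13.2 and 18.1. Tcstv1 had 1 and 3 counts in WT DMSO and 4 and 0 in TKO DMSO, against 17 and 34 in WT TSA and 37 and 38 in TKO TSA. For both genes all 4 TSA libraries lay above all 4 DMSO libraries. Their sum rose with TSA by 3.60 ± 0.40 (log2, SE) in WT and by 4.47 ± 0.40 in TKO, with edgeR adjusted p of 5.55e-05 and 8.63e-06. Tcstv3 alone rose by 3.62 ± 0.39 and 4.53 ± 0.40 (log2, SE), with edgeR adjusted p of 5.03e-05 and 7.47e-06. The 0 counts in TKO DMSO replicate 2 allow a level of up to 0.218 normalised CPM. For Tcstv1 the ratio of the pooled counts, scaled by library size, was 12.4 in WT (95% counting interval 4.57 to 47.4) and 19.2 in TKO (7.19 to 72.3). Its fitted log2 rise in WT, 3.37, was 2.70 without replicate 2 of WT TSA, 2.73 without replicate 1 of WT DMSO and 4.38 without replicate 2 of WT DMSO, with edgeR adjusted p of 0.0306, 0.0372 and 0.0118. In TKO it was 3.12 without replicate 2 of TKO DMSO, the library with 0 counts. Without replicate 1 of TKO DMSO, Tcstv3 rose by 5.14 and the Tcstv sum by 5.35.

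All 9 genes were called higher with TSA at an edgeR adjusted p below 0.05 in WT, where 27.0% of the 15822 genes tested were called higher. All 9 were called higher in TKO, where 30.8% of genes were. A rise of at least 8-fold was reached by 8 of the 9 in WT, where 2.53% of genes were called with such a rise, and by 9 of 9 in TKO, where 3.77% were. Zscan4a, at 5.91-fold in WT, was the member below 8-fold. The count of 8 was 5 without replicate 2 of WT TSA, 6 without replicate 1 of WT DMSO and 8 without each of the others in turn, and the count of 9 in TKO was 9 in each case. The median log2 change of the 9 was 3.62 in WT and 5.00 in TKO, against 0.01 and 0.04 for all genes tested. The filter on low counts limits these counts. Zscan4a, Zscan4c, Zscan4d and Tcstv3 would have passed it on their DMSO libraries alone, while the other 5 passed only through their TSA libraries and so had to differ. All 4 of the former were called higher in both genotypes.

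Loss of the methyltransferases without TSA gave no called change in the 9 genes, where 20.4% of genes tested were called in either direction. In edgeR 2 of the 9 had an unadjusted p below 0.05, where 33.3% of all genes tested had one, and DESeq2, which called 17.7% of genes, called 2, Zscan4a and Zscan4c, with log2 changes of -0.98 for each and adjusted p of 0.0448 and 0.0391. The Zscan4 sum was 0.566 times the WT level in TKO DMSO, with both TKO libraries below both WT libraries. Its log2 difference was -0.82 ± 0.29 (SE), with an edgeR adjusted p of 0.0667. That p was 0.0172 when only these 4 libraries were fitted and 0.0184 without the filter on low counts. With the other scalings and in DESeq2 the sum was still not called. Leaving out single libraries gave differences of -1.04 to -0.62 (log2). Zscan4a, Zscan4c, Zscan4d and Zscan4e had both TKO DMSO libraries below both WT DMSO libraries, and the groups overlapped for the other 5. Over all genes tested the libraries of these groups did not overlap for 59.8%, and TKO was the lower group for 30.5%. Zscan4e, at 0.713 and 0.486 CPM in WT DMSO and 0.137 and 0.145 in TKO DMSO, had the largest fitted difference, -2.04 ± 0.92 (log2, SE), with an edgeR adjusted p of 0.147. Zfp352 was the one member with a positive difference, 0.94 ± 0.90 (log2, SE), with an edgeR adjusted p of 0.508.

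Under TSA, Zfp352 and Zscan4d were called higher in TKO than in WT, 2 of 9 genes, where 18.4% of all genes tested were called in either direction and 10.0% were called higher. Zfp352 was higher by 2.62 ± 0.41 (log2, SE), 6.13-fold, with an edgeR adjusted p of 0.00168. Zscan4d was higher by 0.80 ± 0.20 (log2, SE), 1.74-fold, with an edgeR adjusted p of 0.0171. The Zscan4 sum was higher by 0.67 ± 0.21 (log2, SE), 1.59-fold, with an edgeR adjusted p of 0.0482. The remaining 7 genes had positive log2 differences of 0.28 to 0.66 that were not called. Replicate 1 of WT TSA was the lower of its pair for all 9 genes, by 1.48 to 3.16 times, while the ratio of the replicates over all genes tested had a median of 1.00. Replicate 1 of TKO TSA was the lower of its pair for 7 of the 9, with a median ratio of replicate 2 to replicate 1 of 1.28. Without replicate 1 of WT TSA the Zscan4 sum differed by 0.31 (log2), Zscan4d by 0.47 and Zfp352 by 2.00. Without replicate 2 of TKO TSA the sum differed by 0.50, with an adjusted p of 0.248, Zscan4d by 0.65, with an adjusted p of 0.114, and Zfp352 by 2.24, with an adjusted p of 0.0151. The call of the sum was lost when any library other than replicate 2 of WT TSA was left out, and that of Zfp352 was kept without each library in turn.

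The fitted effect of TSA was larger in TKO than in WT for all 9 genes, by 0.66 to 2.43 (log2), against a median of 0.01 over all genes tested. The share of all genes with a positive difference was not counted. The 9 are not independent, as Zscan4 and Tcstv copies may share reads. Without single libraries the difference reached -0.068 for Zscan4b and -0.34 for Tcstv1. It was called for 0 of 9 in edgeR, where 1.35% of genes tested were called. An unadjusted p below 0.05 was found for 4 of the 9, against 14.5% of genes tested, and DESeq2, which called 2.87% of genes, called 2, Zscan4c and Zscan4d. For the Zscan4 sum the difference was 1.49 ± 0.36 (log2, SE), with an edgeR adjusted p of 0.0729 and an approximate 95% interval, not adjusted for the number of genes, of 0.79 to 2.18. It is the sum of a lower start in TKO DMSO and a higher end in TKO TSA. The edgeR adjusted p of this difference was 0.00689 without the filter on low counts. With the other scalings and in DESeq2 it was still not called. Leaving out single libraries gave differences of 1.13 to 1.95, the largest without replicate 2 of WT TSA. For Zfp352 the difference was 1.68 ± 1.07 (log2, SE), with an edgeR adjusted p of 0.526 and an approximate 95% interval of -0.42 to 3.78. For the Tcstv sum it was 0.87 ± 0.65 (log2, SE), with an edgeR adjusted p of 0.598 and an interval of -0.40 to 2.14. The intervals of Zfp352 and of the Tcstv sum include both 0 and differences of more than 4-fold, while that of the Zscan4 sum does not include 0.

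With both changes, TKO TSA against WT DMSO, all 9 genes were called higher in edgeR, where 31.7% of genes tested were. The Zscan4 sum was higher by 4.35 ± 0.25 (log2, SE), 20.4-fold, with an edgeR adjusted p of 6.52e-07. Zfp352 had the largest such change of the 9, 5.94 ± 0.58 (log2, SE), with an edgeR adjusted p of 1.07e-05. This comparison shares its libraries with those above and adds no independent evidence.

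**Figure D3:**
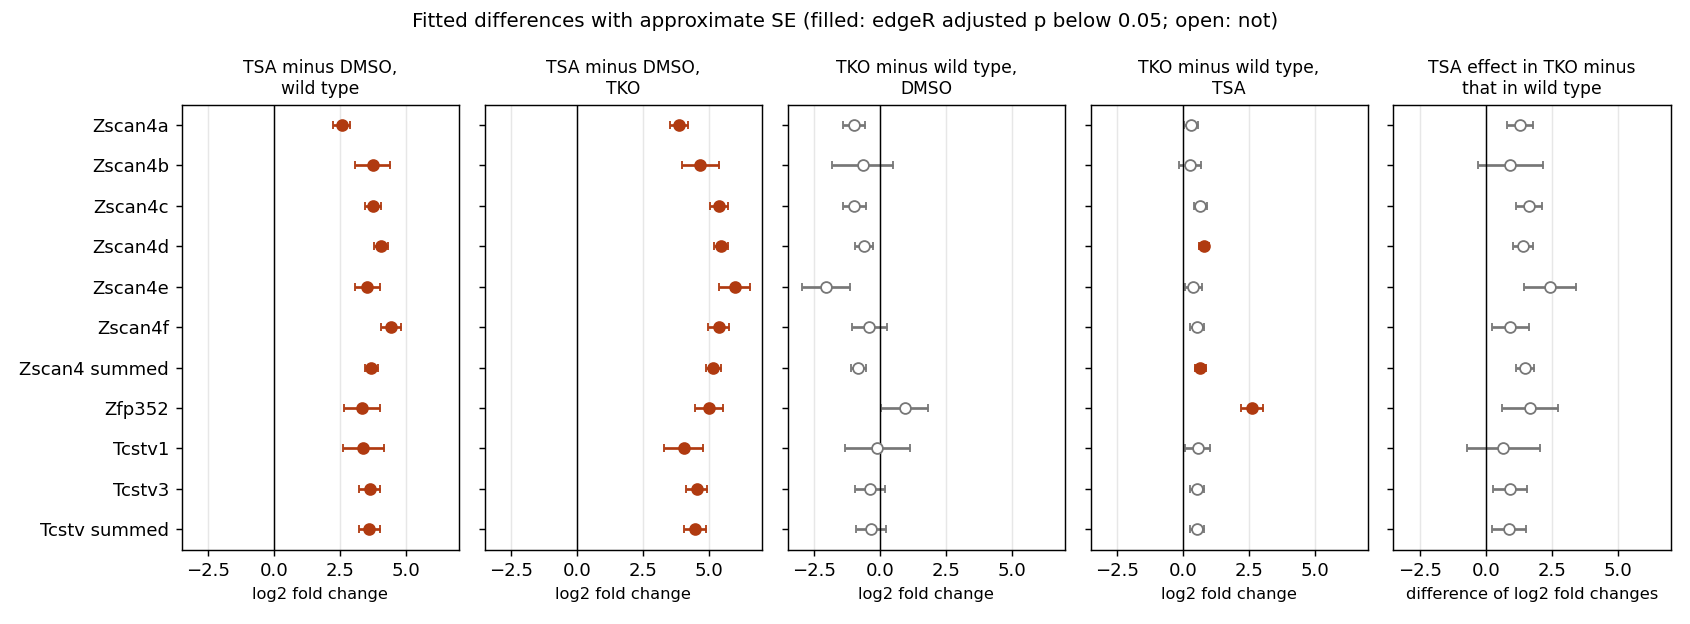
Fitted log2 fold changes (points) with approximate SE (bars) of the 9 genes and the Zscan4 and Tcstv sums in 5 comparisons, filled where the edgeR adjusted p was below 0.05. The TSA panels are filled throughout, from 2.56 to 4.43 for single genes in WT and from 3.86 to 5.97 in TKO, while Zfp352, Zscan4d and the Zscan4 sum are the filled points between genotypes under TSA.

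Levels of different genes were compared per kilobase of exon. Zscan4d was the highest of the 9 in every group, with 2.63 ± 0.437 CPM per kb in WT DMSO, 1.74 ± 0.276 in TKO DMSO, 43.8 ± 15.5 in WT TSA, and 76.1 ± 10.3 in TKO TSA (SD, n = 2 each). With TSA the next was Zscan4c, at 18.3 ± 7.81 CPM per kb in WT and 28.9 ± 4.82 in TKO (SD, n = 2 each). Tcstv3 followed at 12.4 ± 4.82 and 17.8 ± 3.99 CPM per kb (SD, n = 2 each), within the spread of Zscan4c in WT. Zfp352 was the seventh of 9 in WT TSA, at 2.08 ± 1.52 CPM per kb, and the fourth in TKO TSA, at 12.6 ± 4.02 (SD, n = 2 each). There it could not be told from Zscan4a, at 12.5 ± 2.64, or Zscan4f, at 10.5 ± 1.83 CPM per kb (SD, n = 2 each). Zscan4b was the lowest with TSA, at 1.79 ± 0.913 CPM per kb in WT and 2.16 ± 0.377 in TKO (SD, n = 2 each), close to Tcstv1 at 1.95 ± 1.05 and 2.85 ± 0.0968.

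A list of 64 other genes of the two-cell embryo or two-cell-like cells was examined beside the 9, with Dux, the Usp17l, Tdpoz and Eif1a-like families and related transcripts among them. Of these, 51 were in the table, 13 of the 51 had no counts in any library and 30 were tested. All 30 were called higher with TSA in both genotypes, where 27.0% of all genes tested in WT and 30.8% in TKO were, with medians of 3.69 (log2) in WT and 4.79 in TKO. Of the 30, 14 would have passed the filter on DMSO libraries alone, and all 14 were called higher in both genotypes, while the other 16 passed only through TSA libraries. The summed level of the 51 genes was 29.7 to 36.2 CPM in WT DMSO and 33.9 to 40.9 in TKO DMSO, against 293 to 571 in WT TSA and 785 to 1148 in TKO TSA. Between genotypes the 30 genes had a median difference of 0.25 (log2) in DMSO and of 1.24 with TSA. With TSA 20 of 30 were called higher in TKO, against 10.0% of all genes tested. Among the 14 that would have passed the filter on DMSO libraries alone, 10 were called higher there. These 10 included the similar copies Usp17la, Usp17lb and Usp17le. Copies of a family may share reads, so the counts from this list are not counts of independent genes. The count of 20 was 10 without replicate 1 of WT TSA and 9 without replicate 2 of TKO TSA. The difference between the TSA effects was positive for 24 of 30 genes, a share that was not counted over all genes. It had an unadjusted edgeR p below 0.05 for 8, where 14.5% of genes tested had one, and was called in edgeR for 0.

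Tdpoz4, a gene of the TD and POZ domain family expressed in early embryos, followed the order seen in Zfp352. It had 0.071 and 0.243 CPM in WT DMSO, 0.610 and 1.90 in WT TSA, and 0.068 and 0.291 in TKO DMSO, while TKO TSA had 6.09 and 8.60, and was higher in TKO under TSA by 2.57 ± 0.45 (log2, SE), with an edgeR adjusted p of 0.00313. Spz1, a transcription factor gene better known from testis, had 1.95 and 4.42 CPM in WT TSA and 6.76 and 11.5 in TKO TSA, against at most 0.274 in any DMSO library. Gm20767 had 4.58 and 7.06 CPM in WT TSA and 14.1 and 15.0 in TKO TSA, against at most 0.436 with DMSO. Under TSA both were called higher in TKO, by 1.54 ± 0.39 for Spz1 and 1.33 ± 0.24 for Gm20767 (log2, SE), with edgeR adjusted p of 0.0191 and 0.00352. Gm13078, BB287469 and B020004J07Rik had positive differences there of 0.64, 1.03 and 0.96 (log2) that were not called, with edgeR adjusted p of 0.246, 0.0534 and 0.0788. All genes named in this paragraph were picked for a large change in TKO TSA against WT DMSO. The same TKO TSA libraries gave the differences between genotypes, which are therefore a description and no separate support. None of these genes would have passed the filter on DMSO libraries alone.

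**Figure D4:**
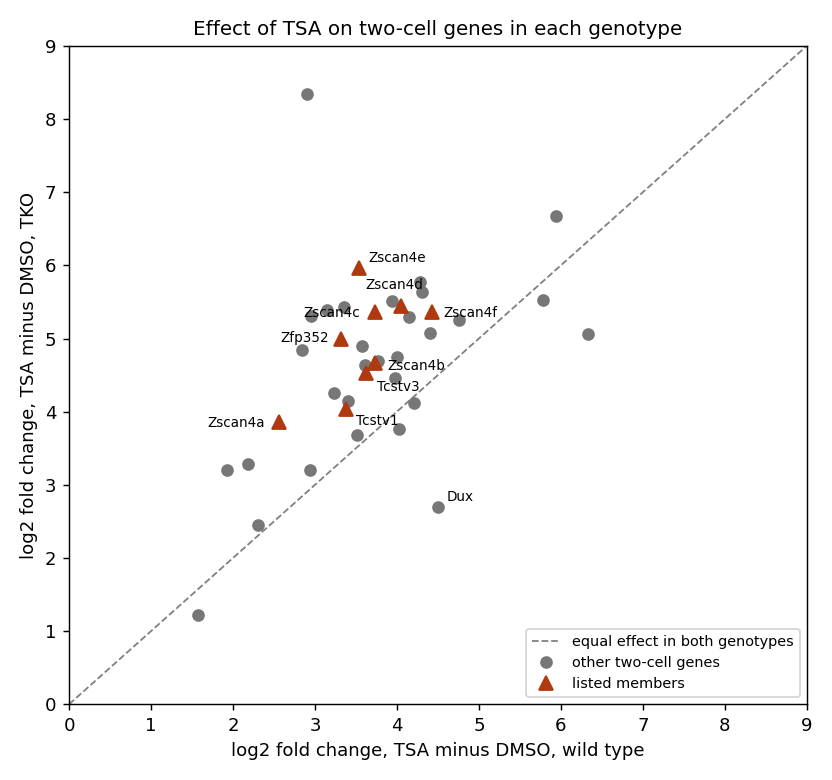
Log2 fold change with TSA in WT (x axis) against that in TKO (y axis) for the 9 genes (triangles) and the 30 tested other two-cell genes (circles), with a dashed line for equal effects. The 9 triangles and 24 of the 30 circles lie above the line, and Dux, at 4.50 and 2.70, lies below it.

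Genes with the course across libraries most like the Zscan4 sum were looked for among the 14412 tested genes whose mean reached 1 CPM, by the root mean square difference of centred log2(CPM + 0.5) over the 8 libraries. The nearest was Gm2022, at 0.254, followed by Gm1995 at 0.289, Gm8300 at 0.329, Abcb5 at 0.357 and Gm5662 at 0.399. The median over all genes ranked was 2.23, and 8 of the 20 nearest genes were in the list of other two-cell genes. Gm2022 had 2.21 and 2.92 CPM in WT DMSO, 24.5 and 54.0 in WT TSA, and 1.85 and 1.46 in TKO DMSO, while TKO TSA had 61.7 and 90.6. Abcb5, a transporter gene of the ABC family and not on the list, had 0.785 and 1.13 CPM in WT DMSO, 11.9 and 20.6 in WT TSA, and 0.821 and 0.727 in TKO DMSO, while TKO TSA had 19.1 and 30.8. Among the 9 genes, the distance to the sum was 0.139 for Zscan4c and 0.189 for Zscan4d, whose counts make up most of it, and 0.564 for Tcstv3, 0.988 for Zfp352 and 1.25 for Tcstv1.

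Of 9 listed activators of the state, 8 were in the table and tested, and they moved in both directions. Dux, whose protein activates two-cell genes and whose copies are repeated, had 0.143 and 0.162 CPM in WT DMSO, 2.38 and 4.89 in WT TSA, and 0.479 and 0.364 in TKO DMSO, while TKO TSA had 2.57 and 3.01. The TSA libraries of both genotypes were above all DMSO libraries, and those of the genotypes overlapped. Dux rose by 4.50 ± 0.57 (log2, SE) in WT and by 2.70 ± 0.48 in TKO, with edgeR adjusted p of 1.12e-04 and 6.24e-04, and the effects differed by -1.80 ± 0.88 with an adjusted p of 0.389. Nelfa, a subunit of the negative elongation factor reported to drive the state, had 75.5 and 65.9 CPM in WT DMSO, 65.1 and 86.9 in WT TSA, and 61.5 and 64.1 in TKO DMSO, while TKO TSA had 122 and 143. It rose in TKO by 1.08 ± 0.14 (log2, SE; edgeR adjusted p 8.03e-05), while the change in WT was 0.10 ± 0.14 (adjusted p 0.560). The effects differed by 0.98 ± 0.20 (log2, SE), with an edgeR adjusted p of 0.0414 that became 0.0602 with total counts as the scale.

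Gata2, a zinc finger factor, rose by 1.65 ± 0.39 in WT and 1.40 ± 0.36 in TKO (log2, SE), with edgeR adjusted p of 0.00453 and 0.00674. Nr5a2, a nuclear receptor, fell by 2.10 ± 0.17 and 1.59 ± 0.16 (log2, SE), with edgeR adjusted p of 1.28e-05 and 1.52e-05. Tbx3, a T-box factor, fell by 1.48 ± 0.21 and 2.28 ± 0.20 (log2, SE), with edgeR adjusted p of 2.36e-04 and 8.03e-06. Dppa2 and Dppa4, DNA-binding partners upstream of Dux, had changes of -0.29 and -0.24 (log2) in WT that were not called. In TKO they fell by 0.56 and 0.35 (log2), with edgeR adjusted p of 0.00363 and 0.0116. Smarca5, a chromatin remodeller, was not called with TSA, with changes of -0.27 and -0.15 (log2).

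All 25 listed repressors of the state were tested, and with TSA 12 were called lower and 1 higher in WT, and 10 lower and 1 higher in TKO. Background shares were 25.9% and 27.9% called lower. The median log2 changes of the list were -0.26 and -0.19. Trim28, the corepressor that zinc finger proteins recruit to chromatin, stood at 2293 to 2425 CPM in WT DMSO and 1367 to 1446 in WT TSA, and fell by 0.75 ± 0.08 in WT and 0.80 ± 0.08 in TKO (log2, SE), with edgeR adjusted p of 5.87e-05 and 2.12e-05. Ncl, a nucleolar protein that represses Dux together with Trim28, fell by 0.85 ± 0.12 and 0.95 ± 0.12 (log2, SE), with edgeR adjusted p of 1.68e-04 and 5.40e-05. Rnf2, the ubiquitin ligase of Polycomb complex PRC1, fell by 0.61 ± 0.14 and 0.98 ± 0.14 (log2, SE), with edgeR adjusted p of 0.00338 and 1.30e-04. Zfp809, a zinc finger repressor of retroviral elements, was higher in TKO DMSO than in WT DMSO by 0.90 ± 0.14 (log2, SE), with an edgeR adjusted p of 0.00149. The count of repressors called lower in WT depended on the scaling: it was 5 of 25 with total counts or the upper quartile as the scale, under which the median of all genes moved to 0.22 and 0.16 (log2).

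Markers of other cell types were also examined with TSA, beside the rise of the 9 genes. The shares of all genes tested were 27.0% called higher and 25.9% called lower in WT, and 30.8% and 27.9% in TKO. Of 8 trophoblast markers, 7 were called higher with TSA in each genotype. Their summed level was 513 to 767 CPM in WT DMSO and 1238 to 1347 in WT TSA. It was 93.5 to 134 CPM in TKO DMSO and 346 to 398 in TKO TSA. Krt8 and Krt18 made up most of the WT sums, at 430 to 498 and 622 to 680 CPM in WT TSA. In TKO TSA they stood at 27.7 to 44.6 and 56.3 to 93.9 CPM. Under TSA 3 of the 8 markers were called higher in TKO than in WT, and 3 lower. Of 8 endoderm markers, 2 were called higher in WT and 3 in TKO, near the shares of all genes. Their sums were 15.3 to 16.3 CPM in WT DMSO and 23.9 to 27.2 in WT TSA. In TKO the sums were 28.5 to 32.4 CPM with DMSO and 43.9 to 50.0 with TSA. Of 8 markers of mesenchyme or feeder cells, 3 were called higher and 3 lower in WT and 6 higher in TKO. Of 8 oocyte markers, 5 were tested, of which 0 were called with TSA in WT and 4 were called lower in TKO. The sum of the oocyte markers was 6.09 to 16.7 CPM over the 8 libraries. ES cell markers went the other way from trophoblast markers, with 8 of 10 called lower in WT and 7 of 10 in TKO. The part of these shifts in the change of the two-cell genes was not tested.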

How the data were processed

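RNA was depleted of ribosomal RNA and made into strand-directional, paired-end libraries, per the labels' protocols. What the authors deposited is raw counts per gene for the 8 libraries, with exon coordinates and each gene's summed exon length, another unit, a length in bases that the authors deposited. The submitters' processing notes name mm10, TopHat2 2.0.13, featureCounts 1.4.5-p1 and edgeR 3.22.3. The annotation, the use of strand and the treatment of reads that map to several copies are not given in the sources used here. Values of single copies of Zscan4, Tcstv, Dux and the other families of similar genes are therefore uncertain. The Zscan4 and Tcstv counts were also summed. Of the table's per-sample columns, 0 could not be matched to a sample.

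Counts were tested with edgeR 4.0.16 (R 4.3.3). The filterByExpr filter kept 15822 genes (about 0.682 CPM or more in at least 2 libraries). After TMM scaling, a quasi-likelihood model of the 4 group means was fitted over the 8 libraries, leaving 4 residual degrees of freedom. For the sums, the copies' rows were replaced by their total and the fit was repeated. Tests were two-sided, with Benjamini-Hochberg adjustment over all genes tested, and a gene was called below 0.05. Each SE follows from the log2 change and its F statistic and is approximate, as are intervals made from it. The code was tested on simulated data. Alternatives were other scalings, DESeq2 1.42.0, no filter on low counts, a replicate block, a fit to only the groups compared, and leaving out each library.

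The members, lists, tests and alternatives were chosen with earlier results of these data known. Named genes are the 9 members, the checks, the activators, the 5 genes nearest to the Zscan4 sum and, per list, at most 6 called genes with the largest change in TKO TSA against wild type DMSO and a mean of 1 CPM or more. TATAAA and TAATCC were chosen after the windows were read. In these libraries 3 counts stand for 0.193 to 0.226 CPM before TMM scaling, and intervals and floors cover counting error only. The other 118 samples of the series were not analysed here.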

Additional observations from a re-analysis of the deposited data

Results flagged for a closer look

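Nelfa responded to TSA differently in the 2 genotypes by the interaction test: the TSA effect was larger in TKO than in wild type by 0.98 (log2), with an edgeR adjusted p of 0.0414. The adjusted p was 0.0602 with total counts and 0.0614 with the upper quartile as the scale. Over all alternatives the difference lay between 0.78 and 1.20, and it was not called without WT DMSO replicate 1, either TKO DMSO library, WT TSA replicate 1 or TKO TSA replicate 2 (adjusted p 0.104 to 0.178). Dnmt3b, a gene disrupted in the TKO line, differed in the same way, by 1.33 (log2) with an edgeR adjusted p of 0.00521: it fell by 0.72 in wild type and rose by 0.61 in TKO, where its level was 44.9 CPM with DMSO and 68.7 with TSA.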

How the results depend on the processing

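With TSA in wild type (WT), with TSA in TKO and with both changes, 9 of 9 genes were called under each of the 15 alternatives run. Where a library was left out, the lone one is assumed to vary like the other groups. For TKO against WT in DMSO, 0 genes were called, and 2 with DESeq2, 2 with the replicate block and 0 to 2 without single libraries. The Zscan4 sum there was -0.80 without the filter on low counts (edgeR adjusted p 0.0184), -0.84 with the block (0.00566) and -0.82 in the fit to only the groups compared (0.0172). Without single libraries it was -1.04 to -0.62, and it was not called with the other scalings or DESeq2. The Tcstv sum was -1.21 to 0.18, turning without TKO DMSO replicate 2. For TKO against WT with TSA, 2 genes were called, and 3 with DESeq2, 3 without the filter, 4 with the block and 1 to 4 without single libraries. The Zscan4 sum was 0.63 with total counts (0.0650), 0.62 with the upper quartile (0.0705), 0.66 in DESeq2 (0.194), 0.66 in the fit to only the groups compared (0.0799), and 0.31 to 1.13 without single libraries, called only when WT TSA replicate 2 was left out; it kept its call with the block (0.70, 0.00172), without the filter (0.66, 0.0101) and with RLE factors (0.66, 0.0485). The interaction was called for 0 genes, for 2 with DESeq2, 2 without the filter and 3 with the block. That of the Zscan4 sum was 1.46 without the filter (0.00689), 1.54 with the block (0.00405) and 1.13 to 1.95 without single libraries. With the other scalings and DESeq2 the interaction of the sum was not called. Repressors lower with TSA in WT numbered 5 with total counts, 5 with the upper quartile and 7 to 12 without single libraries, other two-cell genes higher in TKO under TSA 9 to 22, and members at least 8-fold higher with TSA 5 to 8 in WT and 9 in TKO, counts run after seeing the data. Single genes turned without single libraries: in DMSO Tcstv1 (-4.23 to 0.90), Zscan4b (-4.79 to 0.35), Zscan4f (-1.53 to 0.26) and Tcstv3 (-0.98 to 0.030); with TSA Zscan4a (-0.094 to 0.88), Zscan4b (-0.18 to 0.91) and Zscan4e (-0.083 to 1.09); in the interaction Tcstv1 (-0.34 to 4.78) and Zscan4b (-0.068 to 5.07); and Nelfa in WT (-0.12 to 0.30). The cause was not tested. Same-numbered libraries share only a number (correlation of deviations 0.0586 to 0.366). With the replicate block, calls over all genes went from 213 to 633 for the interaction, where DESeq2 gave 401. Depth limits the DMSO levels of Zscan4b, Zscan4e, Zscan4f, Zfp352, Tcstv1 and Tcstv3, at 0 to 16 counts a library.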
